A study of Mus musculus with 3 samples.

Results

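The miR-199 and miR-214 microRNAs (miRNAs, small RNAs that silence messenger RNAs) were described here in visceral white fat. The members were all rows named miR-199a, miR-199b or miR-214, either arm, which gave 6 of the 1251 mature miRNAs listed. Small RNA was sequenced from snap-frozen epididymal fat, the visceral depot, of 3 C57BL/6J mice numbered 1, 3 and 9. All 3 mice had eaten a high-fat diet with 6.75% eicosapentaenoic acid (EPA), a polyunsaturated fatty acid found in fish oil, for 11 weeks. They were 5 to 6 weeks old at the start and were fasted for 4 h before tissue was taken. Fat supplied 45% of the energy of this diet, protein 20% and carbohydrate 35%. No sample from another diet was analysed here, so no value measures an effect of EPA, and levels, arms and spread between mice are what could be compared. The sample titles alone name the 3 samples as separate, so the p-values measure how these samples vary, which may be technical.

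A miRNA hairpin is cut from a longer transcript and yields a 5p and a 3p arm, and bases 2 to 8 of an arm, the seed, select the messenger RNAs it represses. The miR-199 and miR-214 hairpins are transcribed opposite to genes of the dynamin family, which encode membrane-pinching enzymes, and are best known from fibroblasts, smooth muscle and other mesenchymal cells. Dnm3os, the transcript that carries miR-199a-2 and miR-214, is driven by the mesenchymal factor TWIST1 and is needed in mice for normal growth and skeletal development. Among reported targets are caveolin-1 (miR-199a-5p, human lung fibroblasts), mTOR and MET (miR-199a-3p, human tumour cells) and Ezh2 (miR-214-3p, mouse skeletal muscle).

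The mature sequences are shown because they decide which members can be told apart and which share a seed. RefSeq on GRCm38.p6, the assembly of mm10, gave a mature sequence for 5 of the 6 members, and these are printed 5′ to 3′ with the seed in capitals. miR-199b-5p is named without one.
miR-199a-3p: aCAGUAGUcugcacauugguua
miR-199b-3p: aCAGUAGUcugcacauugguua
miR-199a-5p: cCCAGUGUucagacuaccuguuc
miR-214-3p: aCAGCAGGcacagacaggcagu
miR-214-5p: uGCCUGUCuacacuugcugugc

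miR-199a-3p and miR-199b-3p matched at 22 of 22 bases, so their reads cannot be assigned to one name. The 3p arms of miR-199a and miR-214 began alike. Over bases 1 to 8 they matched at 6 positions and differed by U5C and U8G (miR-199a-3p first, positions counted from 1 at its 5′ end), both inside the seed, and over the full 22 bases they matched at 8. Outside the members, the seeds of miR-199a-5p, miR-199a-3p and miR-214-5p were shared by no mouse miRNA in the RefSeq table. The seed of miR-214-3p was shared by 1, miR-761, whose row had the lowest value of the scale in each mouse. On GC content the 3p arm of miR-199a was the lowest at 40.9%, against 52.2% for miR-199a-5p, 54.5% for miR-214-5p and 59.1% for miR-214-3p.

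The hairpins are shown because the same 3p arm sits in 3 of them, with the arms that RefSeq lists in capitals.
Mir199a-2: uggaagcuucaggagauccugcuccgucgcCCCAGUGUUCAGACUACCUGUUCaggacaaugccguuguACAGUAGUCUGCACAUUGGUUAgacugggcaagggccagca
Mir199a-1: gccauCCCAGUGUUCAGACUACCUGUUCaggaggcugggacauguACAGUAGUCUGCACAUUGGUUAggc
Mir199b: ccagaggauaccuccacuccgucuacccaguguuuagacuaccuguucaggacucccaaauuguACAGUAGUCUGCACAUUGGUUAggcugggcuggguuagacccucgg
Mir214: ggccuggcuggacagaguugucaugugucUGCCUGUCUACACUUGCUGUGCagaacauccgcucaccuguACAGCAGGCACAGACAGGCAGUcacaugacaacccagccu

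On GRCm38 Mir199a-2 lies at chr1:162217814-162217923 and Mir214 at chr1:162223368-162223477, both on the plus strand, with 5444 bases between them. By GENCODE M21 both lie in an exon of the long non-coding RNA Dnm3os on their own strand and in an intron of Dnm3 on the opposite strand. Mir199a-1 lies at chr9:21496495-21496564 on the minus strand, opposite an intron of Dnm2. Mir199b lies at chr2:32318460-32318569 on the plus strand, opposite an intron of Dnm1. Its nearest neighbour within 10000 bases was the hairpin of miR-3154, 116 bases away, which was not analysed here. The stretch of the Mir199b hairpin that best matched miR-199a-5p matched at 22 of 23 bases, with the difference C10U (miR-199a-5p first) outside the seed. Counts of the pair of miR-199 5p rows therefore rest on how reads with 1 difference were assigned, which the sources used here do not give.

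All 6 members stood above the floor in all 3 mice, where 22.9% of all 1251 rows did (287 rows). Levels are the deposited log2 normalized counts, whose floor is 3.32, and normalized counts are the linear values above that floor. The exact depth and the raw counts of each library are unknown because the values were normalized before deposit, so no counting interval is given. The sorted columns of the 3 mice are nearly one common set of values, so mice differ mainly in the rank a miRNA takes.

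The shared 3p arm was the leading product. The rows of miR-199a-3p and miR-199b-3p were identical, at 13.36 in mouse 1, 13.36 in mouse 3 and 13.03 in mouse 9. They ranked 35, 35 and 38 among the 1251 rows of these mice, and averaged 13.25 ± 0.19 (SD, n = 3), or 9797 ± 1225 normalized counts. No other row had the same values. The equal values in mice 1 and 3 are equal ranks on the common scale, and mouse 9 was the lowest of the 3. Counted once, this arm made up 77.7% ± 5.27 of the members' summed normalized count.

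miR-199a-5p, which comes from both miR-199a hairpins, was next. It stood at 10.38 in mouse 1, 10.29 in mouse 3 and 10.61 in mouse 9, at ranks 84, 86 and 80. Its mean was 10.43 ± 0.16 (SD, n = 3), or 1372 ± 160 normalized counts, with mouse 9 the highest. miR-199b-5p, the only member that belongs to Mir199b alone, stood at 8.08, 7.86 and 8.73 in mice 1, 3 and 9 and averaged 8.22 ± 0.45, or 299 ± 101 normalized counts. miR-199a-5p supplied 83.6%, 84.8% and 78.9% of the 2 miR-199 5p rows in mice 1, 3 and 9, and miR-199b-5p the rest.

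The miR-214 hairpin kept mainly its 3p arm. miR-214-3p stood at 10.13 in mouse 1, 9.52 in mouse 3 and 10.18 in mouse 9, at ranks 89, 101 and 88. It averaged 9.94 ± 0.37 (SD, n = 3), or 994 ± 235 normalized counts, with mouse 3 apart below the other 2. miR-214-5p was the lowest member, at 6.72, 6.49 and 7.38 in mice 1, 3 and 9, and averaged 6.86 ± 0.46, or 111 ± 40.6 normalized counts.

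**Figure D1:**
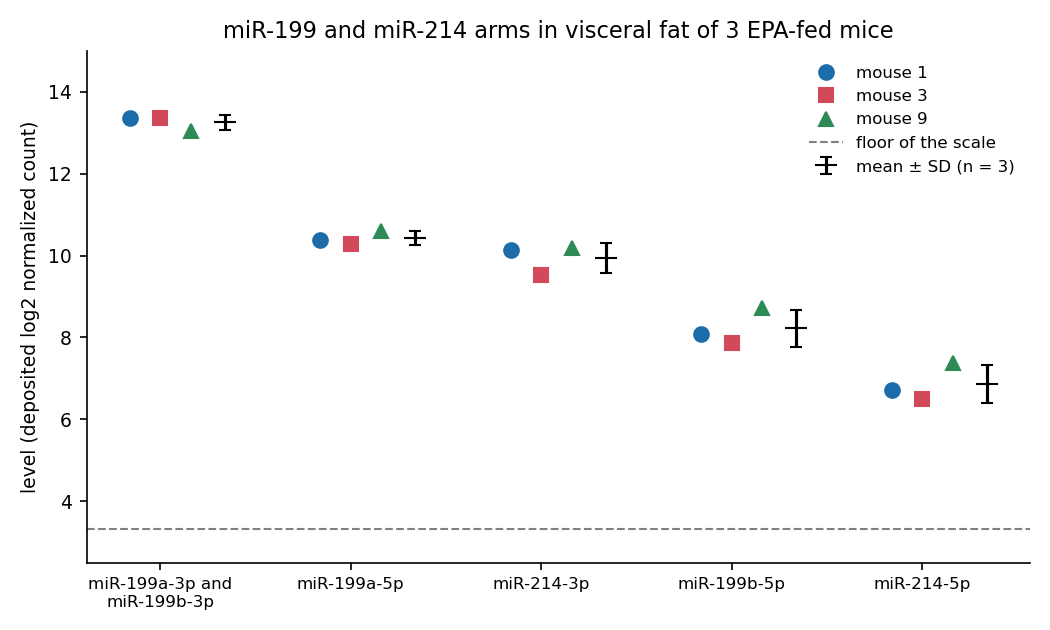
Level of each miR-199 and miR-214 arm (deposited log2 normalized count) in mice 1, 3 and 9, with the mean ± SD of the 3 mice beside them and the floor of the scale as a dashed line. The shared 3p arm of miR-199 averages 13.25, miR-199a-5p 10.43, miR-214-3p 9.94, miR-199b-5p 8.22 and miR-214-5p 6.86, and the ranges of neighbouring arms do not overlap.

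The order of the 5 distinguishable products was the same in 3 of 3 mice, and no range of one overlapped that of the next. The step from the shared 3p arm down to miR-199a-5p was 2.43 to 3.07 log2 units. The narrowest step was from miR-199a-5p to miR-214-3p, at 0.26, 0.77 and 0.43 in mice 1, 3 and 9 (mean 0.48 ± 0.26, SD, n = 3). miR-199a-3p stood above miR-214-3p by 3.31 ± 0.50 log2 units, and miR-199a-5p above miR-199b-5p by 2.20 ± 0.29, a factor of 4.60. Each of these 3 differences was positive in 3 of 3 mice with a two-sided exact sign-flip p of 0.25, the smallest that 3 mice allow, so none could pass a threshold of 0.05. Levels of different sequences also carry unequal capture during library preparation, which was not measured.

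The 3p row stood above the 5p row for each of the 3 names miR-199a, miR-199b and miR-214. The log2 ratio of 5p to 3p was -2.98, -3.07 and -2.43 for miR-199a in mice 1, 3 and 9, with a mean of -2.83 (moderated SE 0.18), so the 3p arm was 7.09 times as high. For miR-214 it was -3.41, -3.03 and -2.80, with a mean of -3.08 (SE 0.18), a factor of 8.44. For miR-199b it was -5.28, -5.50 and -4.31, with a mean of -5.03 (SE 0.29), a factor of 32.6. Tested two-sided against a ratio of equal arms with limma, and adjusted by Benjamini-Hochberg over 129 hairpins, the adjusted p was 6.25e-05 for miR-199a, 3.83e-05 for miR-199b and 4.48e-05 for miR-214, each with 3p higher in 3 of 3 mice. The same test found the 3p arm higher in 46.5% of all hairpins tested (60 of 129) and the 5p arm higher in 51.2% (66 of 129), so nearly every hairpin passed in one direction.

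The ratios of miR-199a and miR-199b set their own 5p arms against a 3p product that 3 hairpins share, so neither is the ratio of a single hairpin. The whole family was therefore also taken as 1 entry, with the 5p rows summed and the 3p counted once. That ratio was -2.72, -2.84 and -2.09 in mice 1, 3 and 9, with a mean of -2.55 (SE 0.20) and an adjusted p of 0.000125 by limma over 128 entries, and the 3p arm stood 5.85 times as high. The 5p arms thus held 13.1%, 12.2% and 19.0% of all miR-199 product, a mean of 14.8% ± 3.66 (SD, n = 3). In miR-214 the 5p arm held 7.92%, 9.96% and 12.0%, a mean of 9.96% ± 2.04.

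The lower arms of this group stood above the floor in each mouse, the lowest being miR-214-5p at 80.0 to 157 normalized counts. In absolute size the ratios of miR-199a and miR-214 were nearer to equal than most: 16 of the 129 hairpins had a smaller ratio than miR-199a and 21 a smaller one than miR-214, where the median size was 5.14 log2 units. miR-199b lay close to that median, with 60 hairpins nearer to equal. Among the 62 hairpins that lean to 3p, whose median ratio was -4.89, 8 were nearer to equal than miR-199a and 10 than miR-214. These positions are descriptions and were not tested.

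**Figure D2:**
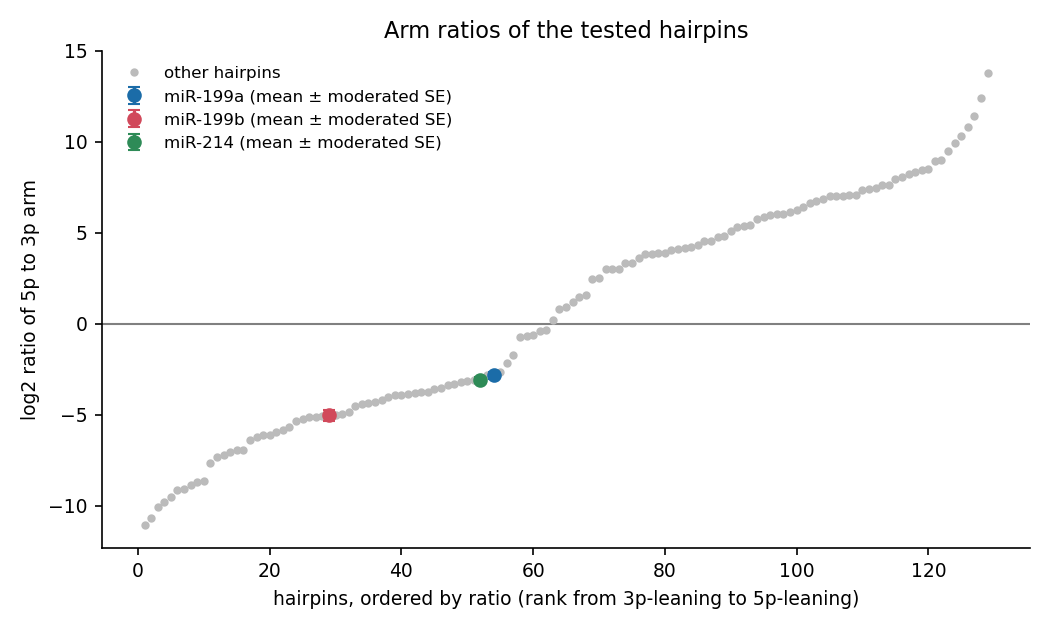
Mean log2 ratio of 5p to 3p arm for the 129 hairpins tested, ordered by that ratio, with miR-199a, miR-199b and miR-214 in colour and error bars of 1 moderated SE. miR-214 at -3.08 and miR-199a at -2.83 lie toward the equal end of the hairpins that lean to 3p, and miR-199b at -5.03 near their middle.

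Between mice the members did not all move the same way. miR-199a-5p, miR-199b-5p, miR-214-3p and miR-214-5p were each highest in mouse 9, next in mouse 1 and lowest in mouse 3, while the shared 3p arm of miR-199 was lowest in mouse 9. Of the 194 miRNAs averaging 100 normalized counts or more, 35 (18.0%) had that order of mice, which was the most frequent of the 6 possible orders without ties. The order was noticed after the values were seen, was not tested, and rests for miR-214-3p on a step of 10.13 in mouse 1 against 10.18 in mouse 9. It held for the same 4 arms after median-ratio scaling.

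The arms also differed in how much they moved. The SD over mice was 0.16 log2 units for miR-199a-5p and 0.19 for the shared 3p arm, both below the median of 0.22 over the 194 miRNAs. It was 0.37 for miR-214-3p, 0.45 for miR-199b-5p and 0.46 for miR-214-5p. Of the 194, 67 had a smaller SD than miR-199a-5p and 159 a smaller one than miR-214-5p. Set against the 20 miRNAs nearest in level to each arm, 15 had a larger SD than miR-199a-5p, 8 than the shared 3p arm, 7 than miR-214-3p, 3 than miR-199b-5p and 8 than miR-214-5p. The median SD of those neighbours was 0.27 for miR-199a-5p and 0.15 for the shared 3p arm, so at its own level the shared arm was not among the steadier rows. miR-199b-5p and miR-214-5p come from different chromosomes, and their difference was nearly constant, 1.34 to 1.37 log2 units in the 3 mice (mean 1.36, SD 0.01). That pair was picked out after its values were seen.

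**Figure D3:**
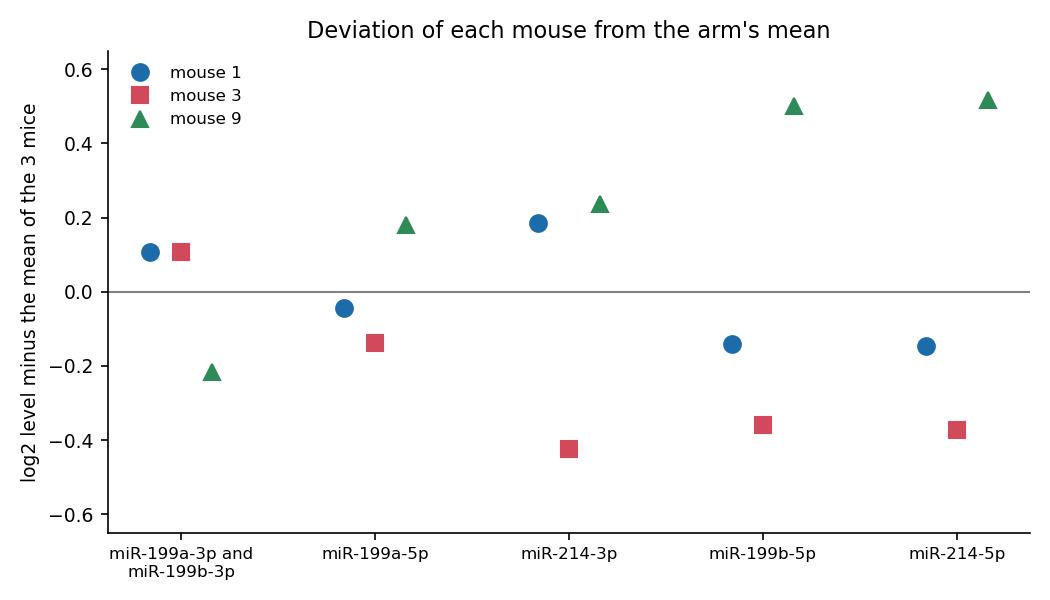
Level of each arm in mice 1, 3 and 9 minus that arm's mean over the 3 mice, in log2 units. Mouse 9 lies above and mouse 3 below the mean for 4 arms, and the shared 3p arm of miR-199 shows mouse 9 below, at -0.22.

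**Figure D4:**
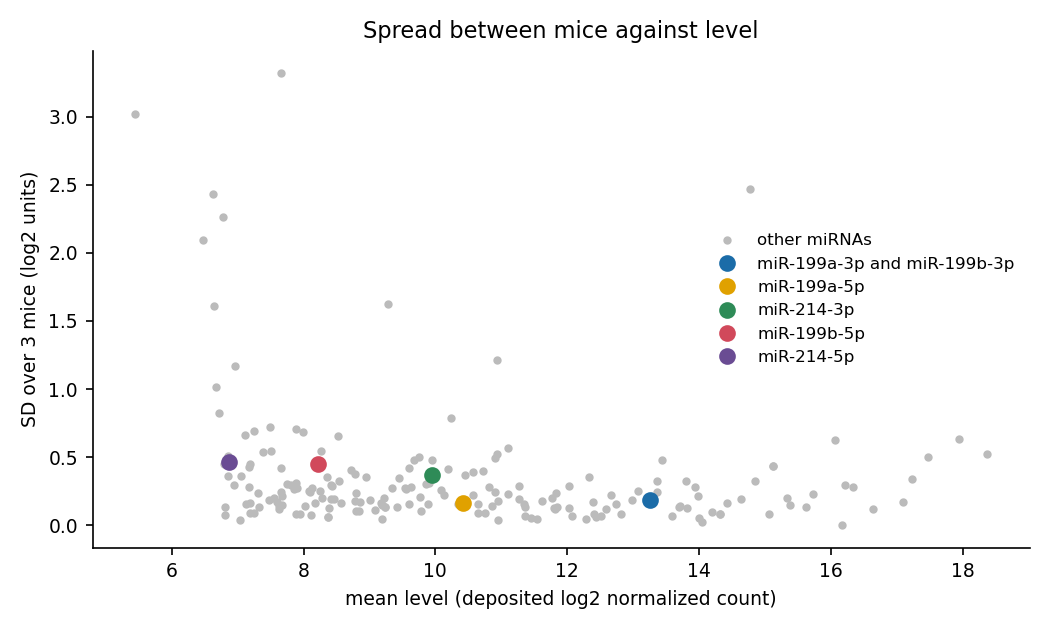
SD over the 3 mice (log2 units) against mean level for the 194 miRNAs averaging 100 normalized counts or more, with the miR-199 and miR-214 arms in colour. miR-199a-5p and the shared 3p arm lie below the median SD of 0.22, and the other 3 arms between 0.37 and 0.46.

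In sum over the 5 products the members held 0.553%, 0.531% and 0.484% of the normalized counts of mice 1, 3 and 9, a mean of 0.523% ± 0.0349 (SD, n = 3). Because the 3p arm of miR-199 outweighs the rest, this sum follows it and was lowest in mouse 9. For scale, the miRNA with the highest mean, miR-22-3p, averaged 18.37 ± 0.52 log2 units, though it ranked 2 in mouse 1 behind miR-26a-5p.

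The other miRNAs of stromal cells were present in the same fat. Of all 1251 rows 22.9% stood above the floor in 3 of 3 mice. So did all 17 rows of a list of stromal, fibroblast and smooth muscle miRNAs, the 6 members and 11 others. Their median level was 9.94 log2 units with the members counted and 8.86 for the 11 others alone. The median of all 1251 rows was the floor of 3.32. That of the 194 more abundant rows was 9.71, above the median of the 11 others. Of the 11 others, 4 had a mean above every member: miR-143-3p (17.10 ± 0.17), its smooth muscle cluster partner miR-145a-5p (14.20 ± 0.10), miR-125b-5p (13.82 ± 0.13) and miR-127-3p (13.44 ± 0.48). miR-100-5p (12.41 ± 0.08) lay between the shared 3p arm and miR-199a-5p. Below miR-199a-5p and miR-214-3p lay miR-145a-3p (8.86 ± 0.17), miR-152-3p (7.88 ± 0.31), miR-409-3p (7.66 ± 0.42) and miR-143-5p (6.04 ± 0.36). The lowest were miR-218-5p (5.38 ± 0.44) and miR-382-5p (4.46 ± 0.47). These lists were chosen with earlier results of these data known.

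Rows from lists of miRNAs that mark other cells stood above the floor too, though not every row did, and cell types were not measured. The endothelial list had 6 of 6 above the floor in all 3 mice, where 22.9% of all 1251 rows were, and a median of 11.28. Its highest were miR-126-3p at 13.37 ± 0.32 and miR-126-5p at 12.67 ± 0.22. The leukocyte list had 5 of 7 and a median of 9.45. Its highest were miR-150-5p at 12.81 ± 0.08 and miR-342-3p at 10.58 ± 0.22, and miR-155-5p stood at the floor. The erythroid list had 3 of 4 and a median of 8.92. It was led by miR-486-5p at 15.13 ± 0.43 and miR-451a at 12.33 ± 0.35, while miR-144-3p stood at the floor in mice 3 and 9. The epithelial list had 4 of 7 and a median of 6.47, with the highest levels in miR-203-3p at 9.54 ± 0.27 and miR-205-5p at 9.28 ± 1.62. The striated muscle list had 2 of 6, with a median of 4.02: miR-133a-3p at 14.78 ± 2.47 and miR-133b-3p at 7.65 ± 3.32, while miR-499-5p was at the floor. In bulk tissue a lower level can come from fewer cells of a type or from less RNA per cell, which cannot be told apart, and no value here ties the members to fibroblasts.

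In proportion to its size, the summed share of each cell-type list except the leukocyte list moved between mice more than the members' sum did. The striated muscle, epithelial and erythroid lists moved most. The summed share of the striated muscle list was 0.163% in mouse 1, 3.57% in mouse 3 and 2.79% in mouse 9. It was almost wholly miR-133a-3p, and 4 of its 6 rows, among them miR-1a-3p and miR-206-3p, stood at the floor in at least 1 mouse. The epithelial list held 0.0692%, 0.157% and 0.0378% in mice 1, 3 and 9. The erythroid list held 2.39%, 1.51% and 1.38%, in the same order of mice as the members' sum. The other 11 rows of the stromal list, dominated by miR-143-3p, held 8.62%, 8.30% and 7.09% in mice 1, 3 and 9, lowest in mouse 9 like the shared 3p arm of miR-199. The endothelial list held 0.933%, 1.15% and 0.987%, and the leukocyte list 0.451%, 0.433% and 0.480%, the last in the same order of mice as the 4 other member arms. Their part in the members' levels was not tested.

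**Figure D5:**
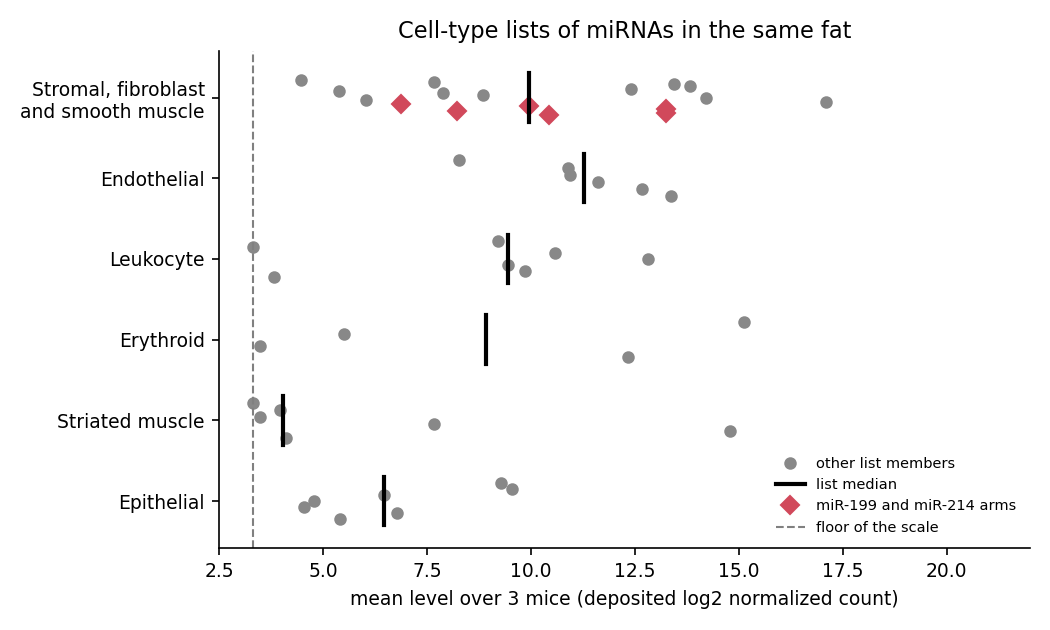
Mean level over 3 mice (deposited log2 normalized count) of each miRNA in 6 cell-type lists, with a bar at each list's median, the miR-199 and miR-214 arms as diamonds and the floor as a dashed line. The stromal, endothelial, erythroid and epithelial lists have no row with its mean at the floor. The stromal list has a median of 9.94, or 8.86 without the miR-199 and miR-214 arms. The other medians are 11.28 for the endothelial, 9.45 for the leukocyte, 8.92 for the erythroid, 6.47 for the epithelial and 4.02 for the striated muscle list.

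miRNAs reported to promote or restrain fibrosis, the build-up of matrix by fibroblasts, stood alongside. The promoting list, which holds no member, had 5 of 6 above the floor in 3 of 3 mice, against 22.9% of all 1251 rows. Its median was 11.89. The leading 4 were miR-145a-5p, miR-125b-5p, miR-21a-5p (13.70 ± 0.14) and miR-192-5p (10.08 ± 0.26). Of 15 restraining miRNAs 13 were above it and 2 at it in every mouse, with a median of 9.20. These were led by miR-26a-5p (17.95 ± 0.63), miR-30a-5p (16.18 in each mouse), miR-133a-3p, with miR-30c-5p (14.63 ± 0.20) after them. Of the members, miR-199a-5p at 10.43 and miR-214-3p at 9.94, which have reported fibrotic roles, lay within the range of both lists. Those ranges ran from the floor to 14.20 and to 17.95 and take in most levels, so this does not link the members to either list.

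The miRNAs nearest in level were found by the Euclidean distance of log2 values over the 3 mice, which measures level more than pattern at this sample size. For miR-199a-3p they were miR-126-3p (distance 0.444), miR-26b-5p (0.474) and miR-23a-3p (0.566). For miR-199a-5p they were miR-342-3p (0.276), miR-574-3p (0.362) and miR-320-3p (0.423). miR-342-3p, at 10.53, 10.38 and 10.82 in mice 1, 3 and 9, had the same order of mice as miR-199a-5p. For miR-214-3p they were miR-744-5p (0.237), miR-193a-3p (0.396) and miR-15b-5p (0.443), and mouse 3 was the lowest of the 3 mice in each of them as in miR-214-3p. The distance used these same values, so the choice itself favours rows with a like order of mice, and that likeness is no separate result.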

How the data were processed

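Libraries were made from total RNA with the Illumina small RNA protocol, per the labels' protocols. The deposited values are log2 normalized counts, 1 per mature miRNA and mouse. Per the series' design text, the authors ran the Gunaratne pipeline, placed about 13.8 M reads from each sample on mouse mm10, scaled them to the total of usable reads and added a constant of 40. The lowest value is 10 on the linear scale, not 40. Of 336 ranks above the floor 121 are equal in the 3 mice within 1e-06, as quantile normalization would leave, a step no source used here states. For the aligner and the miRNA annotation, not given in the sources used here, nothing is stated. The exact depth of each library could not be recovered.

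Linear values are the power of 2 minus 10, and 10 was added back before logs. Hairpins whose larger arm averaged at least 100 above the floor entered limma 3.58.1 (R 4.3.3), with a prior trended on level, Benjamini-Hochberg adjustment and a threshold of 0.05. The test was tried on simulated data. Python 3.11.15, pandas 2.3.3, numpy 2.4.6 and matplotlib 3.10.9 did the rest. Sequences come from RefSeq (GRCm38.p6), where 1001 row names matched, and host genes from GENCODE M21.

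The members and lists were chosen with earlier results of these data known. The miRNAs named were the members, rows sharing a seed or within 10000 bases, the 3 nearest in level to miR-199a-3p, miR-199a-5p and miR-214-3p, the stromal list, the 2 highest of other lists and 4 of each fibrosis list. A few others are named for standing at the floor. Alternatives were a constant of 1 or 40, other filters, a prior without trend, median-ratio scaling, identical rows, detection cutoffs and leaving out each mouse.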

Additional observations from a re-analysis of the deposited data

How the results depend on the processing

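With 1 group there was no contrast between conditions to pair. The arm ratios and the differences between members were taken within each mouse. Of 122 recomputed values 115 kept their direction and size or side of the threshold. With hairpins filtered at a mean of 1000, the number with 3p higher was 28 and with 5p higher 39, since fewer hairpins were tested, and miR-214, at 994, left the test. Counting both identical 3p rows raised the members' summed share to 0.93%. With detection at 10 or at 100 above the floor, the striated muscle list had 1 and the epithelial list 2. The stromal list had 16 of 17 at 10 and 13 at 100, and the members 6 at 10 and 5 at 100. Over the alternatives the arm ratios ran from -3.02 to -2.70 for miR-199a (adjusted p by limma up to 0.00727), -5.39 to -4.79 for miR-199b (up to 0.00723), -3.22 to -2.78 for miR-214 (up to 0.00724) and -2.78 to -2.40 for the pooled family (up to 0.0109). Leaving out each mouse gave 53 to 57 hairpins with 3p higher and 64 to 65 with 5p higher. The unknown exact depth of each library and the common scale limit comparisons between mice.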
